A study of Saccharomyces cerevisiae with 44 samples.

Results

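The 6 libraries described here hold RNA from sequential pulldowns in yeast that lacked THO2, and they are 6 of the 30 libraries in the series. The Cbp80-PrA tho2Δ strain of Saccharomyces cerevisiae (BY4741/2 background) carried a protein A tag on Cbp80 behind a protease site (CBP80-PPX-PrA), a SNAPf tag on YRA1 and the tho2 deletion. The no tag tho2Δ strain, of the same background, carried SNAPf-YRA1 and the tho2 deletion but no tag on Cbp80. Libraries entered by their labels, as 3 Cbp80-PrA tho2Δ pulldowns and 3 no tag tho2Δ pulldowns. Cells were grown in rich medium (YPD) and ground frozen, and the lysate was lightly crosslinked with formaldehyde. Protein A was captured on IgG beads, the material was released by protease, and an antibody to Yra1 then selected Yra1-bound particles. The no tag pulldown is therefore the background of the whole procedure in the same mutant. Every library also had a matched total RNA library, and the same pair of pulldowns existed in the wild type.

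Cbp80, encoded by STO1, is the larger protein of the cap-binding complex of the nucleus, which binds the 5′ cap that RNA polymerase II transcripts receive early in their synthesis. Yra1 is an RNA-binding adaptor of mRNA export, and THO with Sub2 and Yra1 forms TREX, which couples transcription to export. Tho2 is the largest THO subunit, so the comparison asks which capped RNAs were still held together with Yra1 in cells without THO.

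The 3 Cbp80-PrA tho2Δ pulldowns held 265792, 144922 and 117192 counts on genes, against 38378, 23769 and 32161 in the no tag tho2Δ pulldowns. Each count is a distinct molecule tag from a library method that reads the 3′ end of transcripts. THO2 had 0 counts in all 6 pulldowns and 1 count in the 6 matched total RNA libraries, against 64 to 83 counts in each total RNA library of the wild type without a tag. Of the MATa-specific genes 6 were measured, whereas none of the 4 MATα-specific genes could be tested. Cbp80-PrA tho2Δ replicate 3 stood apart from the other Cbp80-PrA libraries. Its counts differed from those of replicates 1 and 2 by 3.31 and 3.86 in chi-square per degree of freedom, against 1.47 between replicates 1 and 2. No tag replicates 1 and 2 came close to sampling noise, with 1.05 over 1062 genes with at least 10 counts (chi-square test of counts across genes, p = 0.141), but differed over the 2025 genes with at least 5 counts (1.09, p = 0.00298), and they were kept apart. The labels do not say whether replicates were separate cultures, although the study describes biological replicates. The edgeR p-values of the pulldowns therefore measure the spread between libraries, estimated over all 15 pulldown libraries.

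Small nucleolar RNAs (snoRNAs) were higher as a class with the Cbp80-PrA tag. They guide the chemical modification of ribosomal RNA, box C/D members directing ribose methylation and box H/ACA members directing pseudouridine formation, and many are made as capped RNA polymerase II transcripts. The genes shown first are the 6 box C/D genes with the largest log2 fold change among those called, since they illustrate what this pulldown collected. Sequences were read from the RefSeq copy of the R64 genome, 5′ to 3′ on the gene's strand, and capitals mark box C (TGATGA) and box D (CTGA). They lie at chrX:349130-349233 (SNR60, minus strand), chrXV:259489-259578 (SNR50, plus), chrXV:136088-136183 (SNR58, minus), chrXI:364776-364876 (SNR69, plus), chrVII:366374-366469 (SNR39B, minus) and chrXI:38811-38911 (SNR64, plus).
SNR60: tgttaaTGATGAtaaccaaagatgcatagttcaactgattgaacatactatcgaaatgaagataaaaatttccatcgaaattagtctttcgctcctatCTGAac
SNR50: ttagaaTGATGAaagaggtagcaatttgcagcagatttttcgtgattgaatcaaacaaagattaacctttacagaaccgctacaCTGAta
SNR58: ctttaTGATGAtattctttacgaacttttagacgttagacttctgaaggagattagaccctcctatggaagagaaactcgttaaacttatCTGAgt
SNR69: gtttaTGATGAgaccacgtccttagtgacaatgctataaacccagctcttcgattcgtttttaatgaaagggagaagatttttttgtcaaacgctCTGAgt
SNR39B: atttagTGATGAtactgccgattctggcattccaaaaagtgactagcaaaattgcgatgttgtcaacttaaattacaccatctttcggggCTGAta
SNR64: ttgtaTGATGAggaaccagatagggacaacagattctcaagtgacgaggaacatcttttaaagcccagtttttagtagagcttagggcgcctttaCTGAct

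All 6 hold both boxes close to their ends. Over all annotated snoRNA genes, TGATGA within 25 nt of the start together with CTGA within 25 nt of the end was present in 36 of 47 box C/D genes and in 0 of 29 box H/ACA genes. The pair of box H/ACA genes with the largest values was SNR10, at chrVII:345986-346230 on the plus strand, and SNR37, at chrX:228094-228479 on the minus strand, of which the last 100 bases are shown. Capitals mark the ACA near the 3′ end, present within the last 8 nt of 17 of 29 box H/ACA genes and 3 of 47 box C/D genes.
SNR10: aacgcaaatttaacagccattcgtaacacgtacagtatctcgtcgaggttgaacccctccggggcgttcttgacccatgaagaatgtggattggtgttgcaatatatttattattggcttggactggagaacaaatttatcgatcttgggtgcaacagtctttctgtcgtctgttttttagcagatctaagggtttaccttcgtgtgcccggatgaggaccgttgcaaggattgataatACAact
SNR37: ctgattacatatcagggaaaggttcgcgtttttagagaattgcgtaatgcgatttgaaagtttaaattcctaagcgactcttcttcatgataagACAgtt

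snoRNA genes took 7.29%, 7.39% and 7.37% of the gene counts in the Cbp80-PrA tho2Δ pulldowns, against 0.774%, 0.783% and 0.669% in the no tag tho2Δ pulldowns. The groups did not overlap. In the matched total RNA the share was 1.61% ± 0.139 in the Cbp80-PrA tho2Δ strain and 1.56% ± 0.0114 in the no tag tho2Δ strain (SD, n = 3 each).

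A gene was called higher or lower at an adjusted p under 0.05 (edgeR quasi-likelihood test, Benjamini-Hochberg over all 2997 genes tested) with a log2 fold change beyond 1. Of all genes tested 963 were called higher, or 32.1%, and 627 lower, or 20.9%. Among the 67 tested of 76 box snoRNA genes, 57 were higher and 0 lower, with a median log2 fold change of 3.38 beside 0.29 for all genes tested. Of the 67 genes 22 had at most 3 no tag tho2Δ counts. Those could pass the filter on low counts only through other pulldowns, which favours a higher call. Box C/D genes had 36 higher of 40 tested (47 annotated) and a median of 3.38, or 3.14 with the 4 genes without any no tag count set at their bound. Box H/ACA genes had 21 higher of 27 tested (29 annotated) and a median of 3.57. The wild-type pulldown medians of these lists were 2.74 and 3.03.

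Levels are given as CPM, the counts scaled to a common library size with TMM factors. SNR64 stood at 2339, 2077 and 2309 CPM in the Cbp80-PrA tho2Δ pulldowns, against 59.7, 45.1 and 0 CPM in the no tag tho2Δ pulldowns. With 3 no tag counts, the ratio was 64.4 (95% counting interval 22.0 to 313). SNR39B stood at 1639, 1299 and 1617 CPM, against 0, 0 and 67.2 CPM in the no tag pulldowns, a ratio of 65.8 (18.2 to 545) with 2 no tag counts. SNR10 stood at 1094, 1078 and 1159 CPM against 0, 0 and 33.6 CPM without a tag, a ratio of 94.4 (16.9 to 3735) over 1 no tag count, though it overlaps YGL088W on the same strand. SNR37 stood at 1410, 1428 and 1175 CPM against 29.9, 45.1 and 33.6 CPM, a ratio of 38.7 (13.2 to 188). None of these 4 RNAs overlapped between the groups. The same held for 1840 of all 2997 genes tested, among them 945 of the 963 called higher and 569 of the 627 called lower.

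SNR60, SNR50, SNR58 and SNR69 had 0 counts in all no tag tho2Δ pulldowns. Against a floor of 3 counts over that group they were at least 8.93-fold, 8.05-fold, 7.49-fold and 4.61-fold higher with the Cbp80-PrA tag (SNR60 overlaps YJL047C-A on the same strand). Fitted fold changes of such genes depend on the prior count of the model and are not bounds. All intervals and floors cover counting error only.

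Genes that share a transcript were high too. Of 14 tested polycistronic snoRNA genes, cut from joint precursors, 12 were higher and 0 lower (median 2.68), with SNR72 at 225, 343 and 375 CPM in the Cbp80-PrA tho2Δ pulldowns, against 0, 0 and 33.6 CPM in the no tag tho2Δ pulldowns. Of 8 snoRNA genes inside introns 3 could be tested and 0 were called, with a median of 1.04. Reads in those genes also lie in the host gene, which limits what the counting could assign to them. Counts of 3′ tags do not tell a mature snoRNA from a precursor.

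Other small nuclear RNAs were uneven. Of 5 tested spliceosomal RNAs 3 were higher and 1 lower (median 1.41, wild-type median 2.66). SNR19, the U1 RNA, stood at 2181, 2627 and 1709 CPM in the Cbp80-PrA tho2Δ pulldowns, against 956, 812 and 672 CPM in the no tag tho2Δ pulldowns (log2 1.41 ± 0.28 SE, adjusted p = 1.58e-05 by edgeR). LSR1, the U2 RNA, stood at 1564, 1728 and 2934 CPM against 6362, 5907 and 4701 CPM without a tag (-1.45 ± 0.23, adjusted p = 3.21e-07 by edgeR), a call that ended with the DESeq2 test at -1.0. SNR6, the U6 RNA, which RNA polymerase III makes, was higher by 1.55 ± 0.29. The long form of U5, SNR7-L, shares its sequence with SNR7-S, and its value of 2.69 ± 0.54 is uncertain for that reason. NME1, the RNA of RNase MRP, stood at 2256, 2456 and 2134 CPM against 239, 90.2 and 134 CPM without a tag (3.81 ± 0.34, adjusted p = 4.04e-15 by edgeR), and SCR1, the signal recognition particle RNA, was higher by 1.12 ± 0.26. The other 2 stable noncoding RNAs tested were not called: RPR1, the RNase P RNA, stood at -0.08 ± 0.27 and TLC1, the telomerase RNA, at -0.84 ± 0.28, under the fold required for a call (median of the 4 RNAs 0.52).

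**Figure D1:**
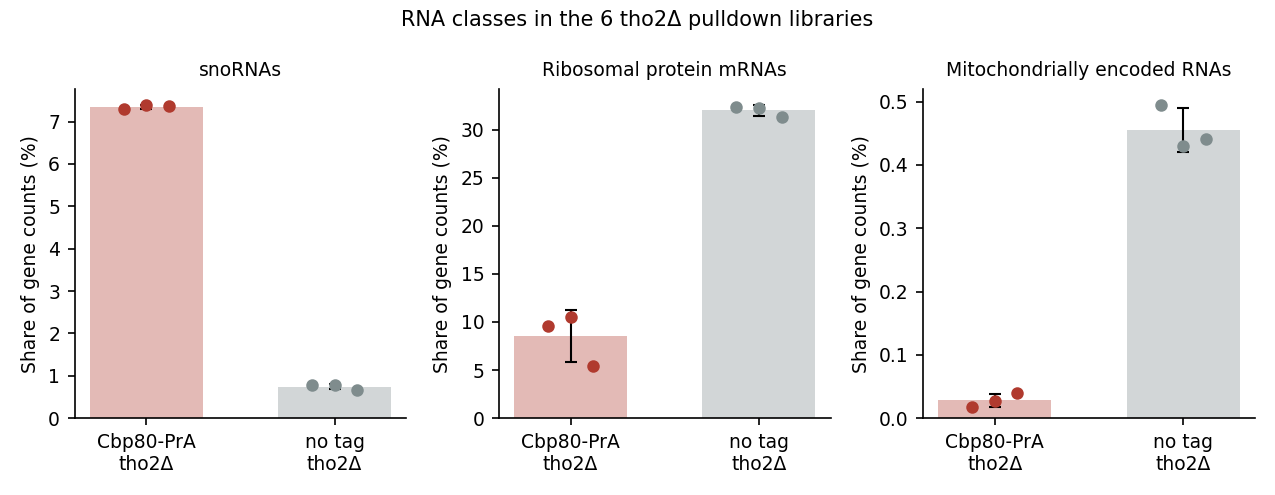
Share of gene counts (%) on snoRNAs, ribosomal protein mRNAs and mitochondrially encoded RNAs in the 3 Cbp80-PrA tho2Δ and 3 no tag tho2Δ pulldowns; points are libraries, bars the mean and error bars the SD. snoRNAs lie between 7.29% and 7.39% with the tag and between 0.669% and 0.783% without it, while the other classes lie lower with the tag.

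Messages of the cytoplasmic ribosome made the opposite shift. Ribosomal protein mRNAs took 9.56%, 10.5% and 5.46% of the counts in the Cbp80-PrA tho2Δ pulldowns, against 32.4%, 32.3% and 31.3% in the no tag tho2Δ pulldowns, and 8.12% ± 0.249 and 9.12% ± 0.904 in the total RNA of the same strains (SD, n = 3 each). Of 131 tested genes 102 were lower and 3 higher. Their median was -2.38 (wild-type median -2.54). Most of these genes, 94 of 131, have a near-identical copy, so the division of reads within a pair is uncertain.

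RPL2B, a large-subunit protein gene, stood at 63.2, 178 and 0 CPM in the Cbp80-PrA tho2Δ pulldowns, against 2509, 2480 and 2183 CPM in the no tag tho2Δ pulldowns (-4.87 ± 1.07, adjusted p = 0.00277 by edgeR). RPS8B stood at 39.5, 28.6 and 41.7 CPM against 567, 541 and 537 CPM without a tag (-3.86 ± 0.42, adjusted p = 3.09e-12 by edgeR). The groups lie far apart for both, and Cbp80-PrA replicate 3 was the lowest for RPL2B. RPL9A (-4.33 ± 0.85), RPS19B (-3.86 ± 0.67), RPS4B (-3.77 ± 0.74), RPL24B (-3.54 ± 0.32) and RPL13A (-3.53 ± 0.45) were among the 12 largest losses. The 3 exceptions were RPS9A, RPL7B and RPL21A, at 4.43 ± 0.39, 3.21 ± 0.40 and 2.03 ± 0.62. RPS9A and RPL7B lie on chromosome XVI, which is described further on, and all 3 have a near-identical copy.

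Genes of protein synthesis were called lower more often than higher. Of 33 tested translation factors 14 were lower and 1 higher (median -0.91). EFT1, a gene of elongation factor eEF2, stood at 7.90, 35.7 and 0 CPM in the Cbp80-PrA tho2Δ pulldowns, against 418, 721 and 638 CPM in the no tag tho2Δ pulldowns. That was the lowest value of all genes tested (-5.31 ± 0.64, adjusted p = 2.11e-07 by edgeR), and its near-identical copy EFT2 was lower by a log2 fold change of -3.31 ± 0.34. TEF2, a gene of eEF1A with the copy TEF1, stood at 2671, 2898 and 500.2 CPM against 23865, 22636 and 20787 CPM without a tag (-3.46 ± 0.55). The exception was DED1, an RNA helicase of initiation, at 2.87 ± 1.02 with 1 no tag count, a call that ended without Cbp80-PrA replicate 1 or no tag replicate 3 (2.51 and 2.47), and net of total RNA. Of 20 tested aminoacyl-tRNA synthetases 10 were lower and 1 higher (median -1.05), among them ALA1 at -3.27 ± 0.50 and DED81, the asparaginyl enzyme, at -2.74 ± 0.34. CDC60, the leucyl enzyme on chromosome XVI, was the higher member at 1.18 ± 0.43, a call that ended net of total RNA (0.60) and against a log2 fold change of 1.

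Ribosome biogenesis factors split. Of 61 tested, 17 were lower (27.9%) and 8 higher (13.1%), beside 20.9% and 32.1% of all genes tested. Their median was -0.57, and the counts moved to 11 and 13 with median-ratio factors. NSR1, the yeast nucleolin, stood at 75.1, 136 and 75 CPM in the Cbp80-PrA tho2Δ pulldowns, against 1105, 1037 and 1108 CPM in the no tag tho2Δ pulldowns (-3.53 ± 0.32, adjusted p = 3.72e-15 by edgeR). RRP5, a long gene of an early assembly factor, and BRX1 were lower by log2 values of -2.50 ± 0.49 and -2.29 ± 0.46. NOP16, a large-subunit assembly factor, went the other way, at 6388, 7353 and 3326 CPM against 866, 631 and 1075 CPM without a tag (2.71 ± 0.28, adjusted p = 3.8e-13 by edgeR). The groups overlap for neither gene, as was so for 1840 of all 2997 genes tested. Of the 8 higher members 4 lie on chromosome XVI, TIF6 and NOG1 among them, at 4.06 ± 0.88 and 3.35 ± 0.98 with 1 no tag count each.

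Among factors of mRNA packaging and export, 11 of 28 tested were higher (39.3%) and 6 lower (21.4%), with a median of 1.01. These shares were near those of all genes tested, at 32.1% and 20.9%. NRD1, which ends transcription of short noncoding RNAs, stood at 1746, 1620 and 2293 CPM in the Cbp80-PrA tho2Δ pulldowns, against 59.7, 0 and 33.6 CPM in the no tag tho2Δ pulldowns, a ratio of 52.4 (95% counting interval 17.9 to 254). CDC31, the centrin that belongs to the TREX-2 complex at the nuclear pore, stood at 5614, 6104 and 3401 CPM against 448, 406 and 302 CPM without a tag (3.71 ± 0.30, adjusted p = 1.55e-16 by edgeR). NAB2, a nuclear poly(A)-binding protein, stood at 672, 742 and 675 CPM against 59.7, 0 and 134 CPM (3.3 ± 0.46, adjusted p = 7.95e-09 by edgeR). The groups did not overlap for any of these 3, as was so for 1840 of all 2997 genes tested.

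Of the 6 lower members, SUB2 and DBP2 encode helicases. SUB2, the TREX helicase, stood at 75.1, 121 and 41.7 CPM in the Cbp80-PrA tho2Δ pulldowns, against 627, 812 and 907 CPM in the no tag tho2Δ pulldowns (-3.26 ± 0.38, adjusted p = 4.24e-10 by edgeR). DBP2, a helicase that acts with Yra1, stood at 186, 228 and 133 CPM against 1464, 1308 and 1847 CPM without a tag (-3.07 ± 0.28). YRA1 itself stood at 23.7, 57.1 and 25 CPM against 179, 0 and 369 CPM, so the groups overlap although the fit called it lower (-2.53 ± 0.67, adjusted p = 0.00202 by edgeR). That call ended without no tag replicate 3, at -1.46. Of the proteins pulled on, STO1 was higher at 2.54 ± 0.73 (adjusted p = 0.00259 by edgeR, 103 counts against 3). CBC2, the small cap-binding subunit, was too low to test, at 86.9, 143 and 125 CPM against 0 counts without a tag (at least 3.16-fold higher). HPR1, a THO subunit, had 42 counts against 2 and was not called (1.77 ± 0.89, adjusted p = 0.086 by edgeR).

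Cell surface genes were higher in many cases. Of 44 tested cell wall genes 26 were higher and 6 lower (median 2.01, total RNA median -0.02). MNN1, a mannosyltransferase of the Golgi, stood at 1406, 1306 and 1451 CPM in the Cbp80-PrA tho2Δ pulldowns, against 29.9, 45.1 and 33.6 CPM in the no tag tho2Δ pulldowns, a ratio of 39.6 (13.5 to 192). UTR2, a chitin transglycosylase, and KRE6, a glucan synthesis gene on chromosome XVI, were at least 7.88-fold and 4.05-fold higher with 0 no tag counts. HSP150, a wall protein with internal repeats, stood at 1817, 1649 and 1609 CPM against 89.6, 45.1 and 201 CPM without a tag (3.85 ± 0.39, adjusted p = 2.54e-13 by edgeR). BGL2, a glucanase, was lower (-1.92 ± 0.44).

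Of 42 tested plasma membrane transporters 22 were higher and 3 lower (median 1.29). TPO3, a polyamine transporter on chromosome XVI with the near-identical copy TPO2, stood at 4124, 4076 and 5110 CPM in the Cbp80-PrA tho2Δ pulldowns, against 239, 90.2 and 67.2 CPM in the no tag tho2Δ pulldowns (4.99 ± 0.36, adjusted p = 4.03e-19 by edgeR). PDR12, a weak acid pump also on that chromosome, stood at 4.63 ± 0.77 with 1 no tag count, and AGP3, an amino acid permease, was at least 4.44-fold higher. The high-affinity glucose transporter HXT7 stood at 0, 28.6 and 0 CPM against 179, 135 and 134 CPM (-4.12 ± 0.93, adjusted p = 0.000145 by edgeR), with its copy HXT6 leaving the reads uncertain. Net of total RNA, HXT7 stood at -1.92 and was not called. Histone genes were higher in 7 of 10 cases and lower in none, though 6 of the 10 have a near-identical copy. HTB1, a histone H2B gene without such a copy, stood at 597, 671 and 584 CPM against 29.9, 45.1 and 0 CPM without a tag, a ratio of 26.2 (7.20 to 217).

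The 12 protein-coding genes with the largest fitted gain all had 0 no tag counts, so only bounds can be given. Such genes could pass the filter on low counts only through other pulldowns, which favours a higher call. Of the 112 genes tested with 0 no tag counts 108 were called higher. SET6, of a SET-domain protein, stood at 597, 385 and 442 CPM in the Cbp80-PrA tho2Δ pulldowns and was at least 14.3-fold higher than without a tag. It overlaps ATG29 on the opposite strand, and the strand setting of the counting is not given in the sources used here. ISU1, a scaffold of iron-sulfur clusters, was at least 12.2-fold higher, RMD6 at least 11.0-fold, MAL13, an activator of maltose genes, at least 10.3-fold and SSU1, the sulfite pump, at least 9.93-fold. ACS2, an acetyl-CoA synthetase, was at least 9.82-fold higher and ERV15, of secretory vesicles, at least 9.43-fold. The other 5 (YBR182C-A, YGR035C, IZH4, CMR3 and APT2) were at least 8.44-fold to 12.2-fold higher. SET6, ISU1, SSU1 and CMR3 lie on chromosome XVI, and the total RNA log2 fold changes of SET6 and CMR3 were 3.93 and 1.31. Net of total RNA, SET6 was not called. RMD6 and MAL13 lie within 20 kb of a chromosome end, where 23 of 41 tested genes were higher and 5 lower (median 1.88).

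**Figure D2:**
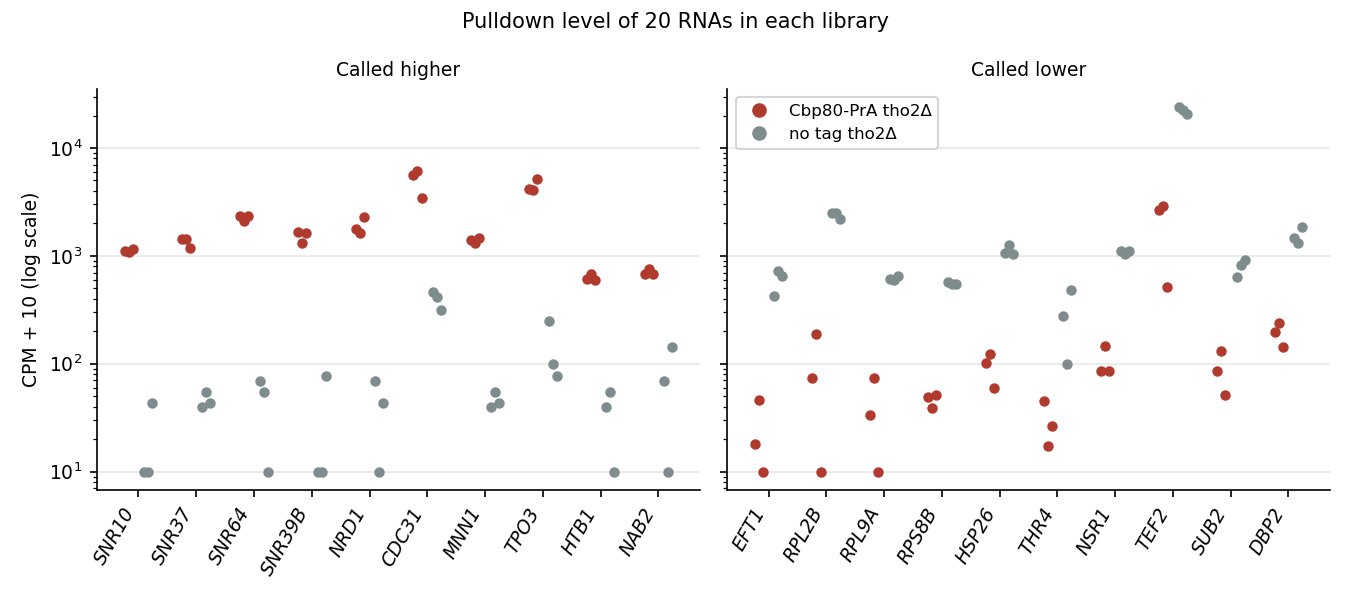
CPM + 10 (log axis) of 20 RNAs in each pulldown library, the 3 Cbp80-PrA tho2Δ libraries in red and left of the 3 no tag tho2Δ libraries in grey for each RNA; the left panel holds RNAs called higher and the right panel RNAs called lower. The groups do not overlap for any of the 20, which were picked from called genes, some of them named by a rule that required it. Of all 2997 genes tested 1840 did not overlap either, and a point at 10 is a library with 0 counts.

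Several metabolic lists held more lower than higher genes, beside 20.9% lower and 32.1% higher over all genes tested. Nucleotide synthesis genes had 16 lower and 4 higher of 30 tested (median -1.18), amino acid synthesis 25 and 15 of 58 (median -0.74, which turned to 0.11 without a filter and 0.10 with DESeq2), secretory pathway genes 17 and 6 of 37 (median -0.80) and proteasome subunits 11 and 3 of 34 (median -0.50). THR4, threonine synthase, stood at 35.6, 7.14 and 16.7 CPM in the Cbp80-PrA tho2Δ pulldowns, against 269, 90.2 and 470.1 CPM in the no tag tho2Δ pulldowns (-3.61 ± 0.55, adjusted p = 8.44e-08 by edgeR). HOM6, of the same pathway, was lower (-3.22 ± 0.29), as were ADK1, adenylate kinase (-3.12 ± 0.38), SEC27, of the COPI coat (-3.0 ± 0.57), and PRE10, of the proteasome core (-2.05 ± 0.37). Against their lists HIS5, of histidine synthesis, was at least 8.05-fold higher, and ERV14, a cargo receptor, had 99 counts against 1, a ratio of 16.5 (2.89 to 658).

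Glycolytic genes moved both ways within the pathway. Of 19 tested 7 were lower and 5 higher (median -0.02, which turned to 0.38 with median-ratio factors). ENO2, an enolase with the copy ENO1, stood at 2773, 2884 and 2001 CPM in the Cbp80-PrA tho2Δ pulldowns, against 14396, 13122 and 13567 CPM in the no tag tho2Δ pulldowns (-2.42 ± 0.21). TPI1, triose phosphate isomerase, stood at 3314, 2713 and 2768 CPM against 149, 451 and 1108 CPM (2.37 ± 0.38, adjusted p = 1.49e-05 by edgeR). Sterol and fatty acid synthesis had 9 higher (29.0%) and 4 lower (12.9%) of 31 (median 0.59), with IFA38, a fatty acid elongation reductase, at 4.01 ± 0.37. Respiratory chain genes had 6 lower (28.6%) and 5 higher (23.8%) of 21 (median -0.70, which turned to 0.01 with DESeq2). Over all genes tested 32.1% were higher and 20.9% lower. Heat shock proteins and chaperones had 14 lower and 7 higher of 37 (median -0.61), SSB1 at -2.75 ± 0.29 and HSP30 at 2.67 ± 0.31.

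Mitochondrially encoded RNAs, which have no cap, took 0.0181%, 0.0269% and 0.0393% of the counts in the Cbp80-PrA tho2Δ pulldowns, against 0.495%, 0.429% and 0.442% in the no tag tho2Δ pulldowns. The pair tested fell, the 21S ribosomal RNA by a log2 value of -4.08 ± 0.27 and AI1, whose reads it shares with COX1 and related introns, by -4.65 ± 0.41. In total RNA they stood at -0.55 and -1.14.

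Intron-containing mRNAs without the ribosomal protein genes had 21 higher (19.4%) and 16 lower (14.8%) of 108 tested, beside 32.1% and 20.9% of all genes tested. Their median was -0.03, which turned to 0.37 with median-ratio factors. HAC1, whose intron is removed in the cytoplasm, had 222 counts against 1, a ratio of 37.0 (6.57 to 1466), and GLC7, a phosphatase, was at least 6.05-fold higher. Coding length was read because the study asked about long transcripts. Median log2 fold changes were -0.22 under 500 nt, 0.02 from 500 to 1000 nt, 0.50 from 1000 to 2000 nt, 0.33 from 2000 to 4000 nt and 0.13 over 4000 nt. The wild-type ratio of the same classes gave -0.67, -0.42, 0.46, 0.54 and 0.08. Without ribosomal protein genes and chromosome XVI the medians of these classes were 0.02, 0.01, 0.43, 0.21 and -0.00 in tho2Δ, and -0.27, -0.36, 0.47, 0.51 and 0.06 in the wild type. In tho2Δ the class under 500 nt was then no longer the lowest, though it stayed below the classes from 1000 to 4000 nt. Over all coding genes the share called higher was 28.7% in tho2Δ and 34.1% in the wild type from 2000 to 4000 nt, and 23.8% and 22.0% under 500 nt. These are medians over genes, which are not replicates. Of the long genes the study looked at, IRA2 stood at -0.00 ± 0.72 (adjusted p = 0.999 by edgeR, 30 counts against 5) and MDN1 (annotated as REA1) at 0.63 ± 0.82 (adjusted p = 0.53 by edgeR, 28 counts against 3). TAO3 fell under the filter on low counts, at 11 counts in the tagged pulldowns and 2 in the untagged ones.

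The split between gains and losses differed with the processing. It was 963 to 627 (60.6% higher) with TMM factors, 1169 to 437 (72.8%) with median-ratio factors, 1424 to 459 (75.6%) without a filter on low counts and 1333 to 454 (74.6%) with the DESeq2 test. The last 2 settings also change which genes are tested, and DESeq2 the test itself. Median-ratio factors moved the median of all genes to 0.69, so list medians are best read relative to it. All 963 genes higher with TMM factors were also higher with median-ratio factors, and all 437 lower with median-ratio factors were among the 627. Median-ratio factors left 92 ribosomal protein genes lower in place of 102, but 0 sterol genes in place of 4, 3 glycolytic genes in place of 7, 7 proteasome genes in place of 11 and 10 secretory genes in place of 17. Without Cbp80-PrA replicate 3 the split was 971 to 584. Without the genes of chromosome XVI it was 838 to 610, and with no tag replicates 1 and 2 summed as 1 library 1080 to 593, both settings chosen after seeing the data.

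Chromosome XVI stood out in the strain, not only in the pulldown. In total RNA, 139 of 4792 genes were higher in the Cbp80-PrA tho2Δ strain than in the no tag tho2Δ strain (2.90% of genes, as against 70 lower, or 1.46%), and 125 of those 139 lie on chromosome XVI. The median total RNA log2 fold change was 0.87 over the 389 genes of that chromosome and between -0.30 (chromosome II) and -0.02 on every other nuclear chromosome. The chromosome held 13.2% ± 0.0870 of total RNA counts with the tag and 7.29% ± 0.0627 without it (SD, n = 3 each). In the pulldown its 250 tested genes had 125 higher and 17 lower (median 1.26), and its counts took 11.7% ± 0.534 with the tag and 7.62% ± 0.173 without it. On the scale of pulldown minus total RNA the median was 0.67, beside 0.56 for genes tested outside it. Of these 389 genes 125 were called higher in total RNA, but the median of 0.87 is over all of them. On this chromosome the strain and the tag therefore cannot be told apart, also for genes under the fold required for a call.

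**Figure D3:**
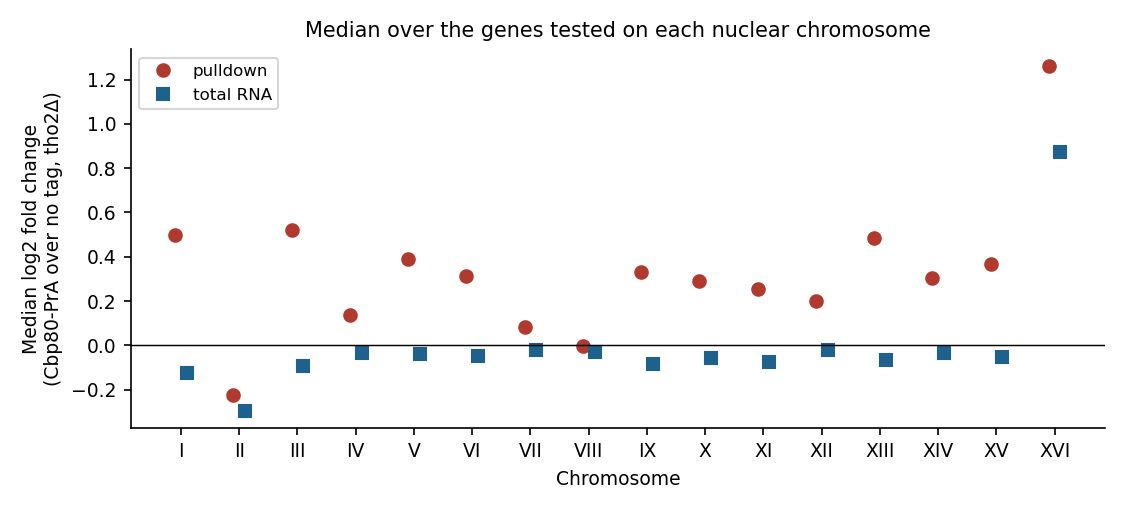
Median log2 fold change (Cbp80-PrA tho2Δ over no tag tho2Δ) of the genes tested on each nuclear chromosome, red circles for the pulldown and blue squares for total RNA. Chromosome XVI stands at 1.26 in the pulldown and 0.87 in total RNA, and chromosome II is the lowest of both, at -0.22 and -0.30.

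The ratio of tag to no tag was then set against the same ratio in the wild type, by an interaction term of the fit. It passed an adjusted p under 0.05 for 98 genes with a higher ratio in tho2Δ (3.27% of 2997) and 32 with a lower ratio (1.07%). The balance of directions turned with total gene counts, which gave 55 higher and 84 lower. Of the 98 genes 36 lie on chromosome XVI. Chromosome II, with 296 of the 2997 genes tested, held 8 of the 32 and 2 of the 98. It took 10.4% ± 0.465 of total RNA counts in the tagged tho2Δ strain and 12.6% ± 0.297 in the untagged one (SD, n = 3 each). The 61 tested ribosome biogenesis factors held 6 of the 98 and 1 of the 32. The 131 tested ribosomal protein genes held 9 and 1, and the 29 tested general stress genes 0 and 4. RPS9A and RPL7B, among those 9, lie on chromosome XVI, where the strain and the tag cannot be told apart.

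CGR1, a large-subunit assembly factor, stood at 3121, 2813 and 2067 CPM in the Cbp80-PrA tho2Δ pulldowns, against 209, 316 and 504 CPM in the no tag tho2Δ pulldowns. In the wild type it stood at 395, 510.1 and 383 CPM with the tag and 916, 495 and 474 CPM without it. The ratio was higher in tho2Δ by 3.53 ± 0.43 on the log2 scale (adjusted p = 1.4e-08 by edgeR), and the strains' total RNA differed by 0.34. TOA1, a subunit of TFIIA, stood at 1442, 1563 and 925 CPM in tagged tho2Δ pulldowns, against 119, 180 and 168 CPM in untagged tho2Δ pulldowns. In the wild type it stood at 223, 190.5 and 148 CPM with the tag and 290.5, 129 and 316 CPM without it, a difference in ratio of 3.45 ± 0.54 (adjusted p = 4e-06 by edgeR). NOP16 differed by 3.17 ± 0.40, FCF2, of ribosomal RNA processing, by 3.51 ± 0.58, and PLP2, which assists protein folding, by 3.3 ± 0.67. Their tho2Δ and wild-type ratios had opposite signs, at 2.71 and -0.46 for NOP16, 2.23 and -1.28 for FCF2, and 1.82 and -1.48 for PLP2.

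CDC31 and NRD1 also had a higher ratio in tho2Δ, with wild-type ratios of 0.93 (not called) and 3.13 on the log2 scale. CDC31 stood at 786, 881 and 745 CPM in tagged wild-type pulldowns, against 581, 323 and 347 CPM in untagged wild-type pulldowns, and the ratios differed by 2.77 ± 0.42 (adjusted p = 3.15e-06 by edgeR). NRD1 differed by 2.58 ± 0.76 (adjusted p = 0.0312 by edgeR), a call that ended when any of 8 libraries was left out, with values from 2.05 to 3.28. On chromosome XVI, RRP15, TPO3, RPS9A and RPL7B differed by 3.39 ± 0.75, 2.98 ± 0.51, 2.47 ± 0.55 and 2.25 ± 0.53. The total RNA of the first 3 was higher in the tagged tho2Δ strain, by 1.33, 1.23 and 1.19, and that of RPL7B stood at -0.04. SSU1 had 179 counts against 0 in tho2Δ and 90 against 12 in the wild type, and its fitted difference of 8.76 depends on the prior count.

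Several stress genes had a lower ratio in tho2Δ. TPS2, which makes trehalose, stood at 23.7, 28.6 and 33.3 CPM in the Cbp80-PrA tho2Δ pulldowns, against 209, 180.4 and 134 CPM in the no tag tho2Δ pulldowns. In the wild type it had 82 counts with the tag and 1 without it, a ratio of 9.90 (95% counting interval 1.73 to 396). The ratios differed by -5.84 ± 1.09 (adjusted p = 0.000125 by edgeR). GAD1, glutamate decarboxylase, HSP26, a small heat shock protein, and RTC3 differed by -3.37 ± 0.81, -2.70 ± 0.48 and -2.60 ± 0.53. HSP26 stood at 90.9, 114 and 50 CPM in tagged tho2Δ pulldowns, against 1045, 1263 and 1041 CPM in untagged tho2Δ pulldowns, and at 106, 106 and 79.4 CPM against 89.4, 172 and 347 CPM in the wild type. DCS2 differed by -4.50 ± 1.15 with 1 untagged count in the wild type, a call that ended when either of the no tag wild-type libraries with 0 counts was left out (-3.84 and -3.81 for DCS2).

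The total RNA of these genes was also lower in the tagged tho2Δ strain than in the untagged one, by -2.68 for HSP26, -2.10 for GAD1, -1.67 for DCS2, -1.21 for TPS2 and -1.81 for GSC2, a glucan synthase. Over the general stress list, 12 of 24 genes measured in total RNA were lower and 0 higher (median -0.98), while in the pulldown 14 of 29 were higher and 4 lower (median 1.35). The tho2Δ pulldown ratio alone, net of total RNA and without a wild-type term, stood at -0.69 for HSP26 and -0.40 for GAD1. It stood at -1.17 for TPS2 and -0.46 for RTC3, none of the 4 called, and changed sign to 0.52 for GSC2. The median over all genes tested was 0.57 on that scale, so all 5 genes stayed below it. These values are not the differences from the wild type, in which the part of the strain's RNA was not tested. PHO3, an acid phosphatase, and NSR1 differed by -2.35 ± 0.50 and -2.10 ± 0.40 with total RNA at -0.05 and -0.07, and SNR19 by -1.5 ± 0.39 with total RNA at -0.11.

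**Figure D4:**
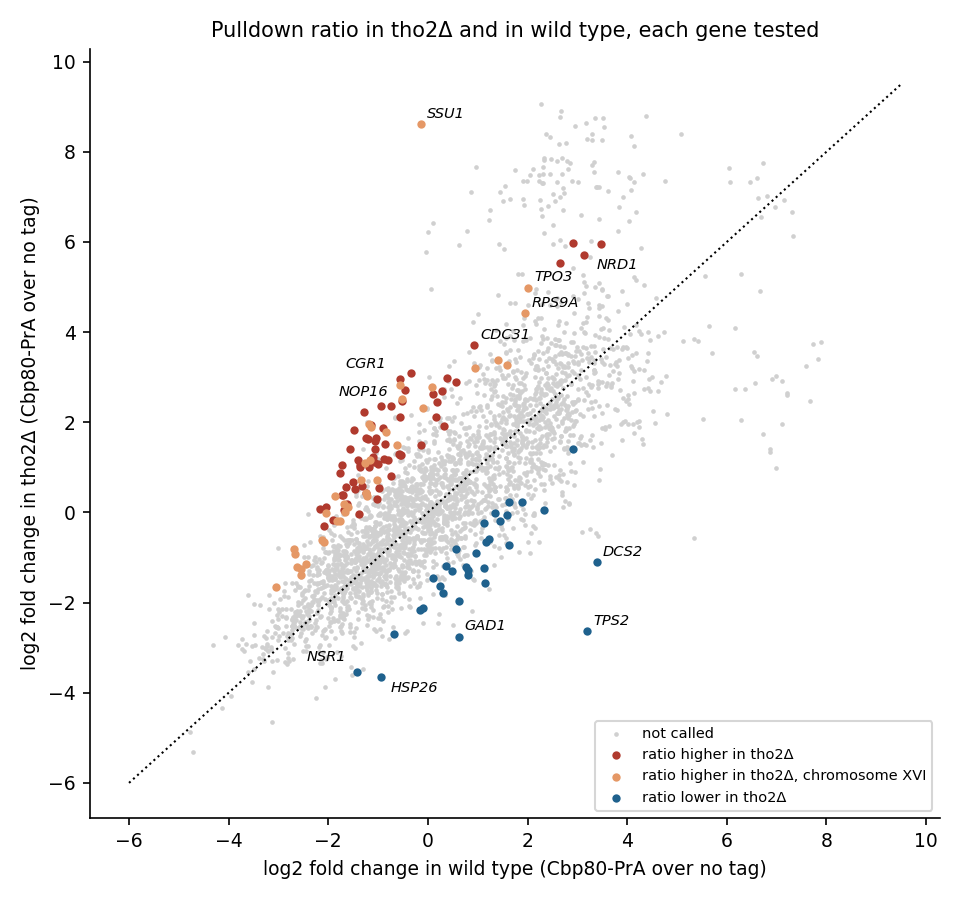
Log2 fold change of Cbp80-PrA over no tag in tho2Δ (vertical) and in the wild type (horizontal) for the 2997 genes tested; red and orange points have a higher ratio in tho2Δ, orange on chromosome XVI, blue points a lower one, grey points were not called, and the dotted line marks equal ratios. The called genes form a band on each side of that line, with CGR1 and CDC31 above it and TPS2 and GAD1 below.

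The coding genes with a higher ratio in tho2Δ outside chromosome XVI were rich in adenine, a feature that was looked at after their values were seen. These 59 genes had a median of 38.7% A in their coding strand, beside 32.2% for the 2621 coding genes tested outside that chromosome, and a median coding length of 705 nt beside 1176 nt. Their median log2 fold change was 1.27 in tho2Δ and -1.05 in the wild type, a gap that follows from how these genes were selected. Their total RNA median was 0.22, with 0 of 59 called in total RNA. The 35 coding genes with a higher ratio on chromosome XVI had a median of 31.9% A, beside 32.3% for all 2863 coding genes tested, and the 30 coding genes with a lower ratio 30.1%. When all 2863 tested coding genes were ordered by A content and cut into 5 classes of nearly equal size, the classes held 1, 1, 4, 10 and 43 of the 59, from the lowest to the highest. The medians over the same classes were 0.06, -0.20, -0.00, 0.30 and 0.48 in tho2Δ and 0.41, 0.19, 0.04, 0.18 and -0.18 in the wild type. A and length go together with other properties of a gene, and none of them was tested. The counts come from 3′-tag libraries, and whether some tags arose at A-rich stretches inside transcripts was not tested.

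The most A-rich 60 bases of the coding strand are shown for the 4 such genes with the largest difference outside chromosome XVI, and for HSP26 and TPS2 from the other side, to show what these percentages look like in sequence. Capitals mark A. They lie at chrVII:440170-440229 (CGR1, plus strand), chrXII:246703-246762 (FCF2, minus), chrXV:711922-711981 (TOA1, minus), chrXV:846951-847010 (PLP2, minus), chrII:382358-382417 (HSP26, plus) and chrIV:594102-594161 (TPS2, plus).
CGR1: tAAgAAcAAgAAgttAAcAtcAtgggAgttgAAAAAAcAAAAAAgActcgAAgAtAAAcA
FCF2: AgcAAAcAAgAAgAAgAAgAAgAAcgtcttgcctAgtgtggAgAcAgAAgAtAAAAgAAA
TOA1: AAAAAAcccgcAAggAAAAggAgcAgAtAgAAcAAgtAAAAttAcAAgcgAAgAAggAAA
PLP2: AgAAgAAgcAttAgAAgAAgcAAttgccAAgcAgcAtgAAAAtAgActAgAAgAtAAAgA
HSP26: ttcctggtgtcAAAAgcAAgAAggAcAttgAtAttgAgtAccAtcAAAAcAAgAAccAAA
TPS2: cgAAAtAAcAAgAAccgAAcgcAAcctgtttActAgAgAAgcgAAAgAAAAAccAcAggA

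These windows hold 33, 30, 34 and 31 A in CGR1, FCF2, TOA1 and PLP2, and 26 and 29 A in HSP26 and TPS2. Over the whole coding region the share of A was 45.2%, 39.0%, 39.5% and 37.5% in those 4 genes, and 31.3% and 32.7% in HSP26 and TPS2.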

How the data were processed

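The submitters' processing notes and the study's methods name UMI-tools 1.0.1, removal of ribosomal RNA reads, STAR 2.7.10a on build R64 and HTSeq 2.0.2. The deposited table holds raw counts of distinct molecule tags (UMIs) per gene, made by the authors from 3′-end libraries. Their table normalized with DESeq2 1.38.2 was not used. The strand setting of the counting is not given in the sources used here. The 5 summary rows that name no gene were dropped. Reads on no gene were 54.2% to 57.8% of all in the Cbp80-PrA tho2Δ pulldowns and 49.4% to 50.6% in the no tag tho2Δ pulldowns.

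All 15 pulldown libraries entered 1 fit and all 15 total RNA libraries another (edgeR 4.0.16 in R 4.3.3, filterByExpr, TMM factors, robust quasi-likelihood test, Benjamini-Hochberg adjustment). Calls needed an absolute log2 fold change over 1 beside an adjusted p under 0.05, and for the interaction the adjusted p alone. Of 6461 genes 2997 were tested. Alternatives were median-ratio factors, total counts, no filter, DESeq2 1.42.0, a test against a fold change, the 6 libraries alone, a replicate block, total RNA subtracted, and each library left out.

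Intervals are exact 95% counting intervals, and a gene without no tag counts was set against 3 counts over that group. Near-identical copies share at least 90% identity over at least 100 nt. Genes were named by a rule: the 12 largest and 12 lowest called coding genes whose groups did not overlap and whose mean reached 20 CPM, up to 3 called members of each list in each direction, the 6 largest and 6 lowest interactions, and a few genes always. The libraries, lists and rule were chosen with earlier results of these data known.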

Additional observations from a re-analysis of the deposited data

Results flagged for a closer look

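Each gene below had a ratio of Cbp80-PrA over no tag that differed between tho2Δ and the wild type by the interaction term of the edgeR fit (adjusted p under 0.05). Values are log2 differences, tho2Δ minus wild type.

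The ratio was higher in tho2Δ for 14 named genes. SSU1 differed by 8.76, with 0 no tag counts in tho2Δ. CGR1, FCF2, TOA1, PLP2 and NOP16, of ribosome assembly, transcription and folding, differed by 3.53, 3.51, 3.45, 3.3 and 3.17. RRP15, TPO3, RPS9A and RPL7B on chromosome XVI differed by 3.39, 2.98, 2.47 and 2.25. CDC31 and NRD1 differed by 2.77 and 2.58, and the snoRNAs SNR39B and SNR64 by 3.05 and 2.48.

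The ratio was lower for 11 named genes. Over all 32 genes with a lower ratio, 8 lie on chromosome II, HSP26 among them. TPS2, DCS2, GAD1, HSP26 and RTC3 differed by -5.84, -4.50, -3.37, -2.70 and -2.60. GSC2, PHO3, NSR1, COR1, FUI1 and SNR19 differed by -2.70, -2.35, -2.10, -2.01, -1.99 and -1.5.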

How the results depend on the processing

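The 963 higher and 627 lower calls varied from 922 to 1029 and from 439 to 600 when 1 tho2Δ library was left out. They fell to 694 and 352 when tested against a log2 fold change of 1. With only the 6 libraries compared they fell to 691 and 462, a setting that also changes which genes are tested. The interaction gave 98 higher and 32 lower calls, but 55 higher and 84 lower with total gene counts and 52 lower with DESeq2. Leaving out 1 library, it gave 66 to 111 higher calls and 19 (without no tag wild-type replicate 1) to 49 (without Cbp80-PrA tho2Δ replicate 3) lower ones. Net of total RNA, the tho2Δ pulldown ratio (not the interaction) changed sign to 0.035 for FUI1 and to 0.52 for GSC2. Both stayed below the median over all genes tested, which was 0.57 on that scale. The cause was not tested.

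Over 163 named genes, 2587 alternative values kept direction and call, 111 lost the call, 3 gained it and 2 turned, and 36 genes lost the call at least once. Over the 25 interactions 365 values held and 35 lost the call, in 7 genes: COR1, DCS2, GSC2, NRD1, SNR19, SNR39B and SNR64.

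With the replicate number as a block, calls were 959 higher and 627 lower, interactions 98 and 29, and total RNA calls 141 and 73. Same-numbered libraries did not deviate together (correlations -0.010, 0.004 and 0.009), nor did each correlate best with its own number, so they share only a number.

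Depth limits the no tag group most: 108 of the higher genes had 0 and 335 had 1 to 3 counts there, beside 112 and 454 of all genes tested. Such genes could pass the filter on low counts only through other pulldowns, which favours a higher call.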

Other observations

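Transfer RNA genes, looked at after their values were seen, had 36 higher and 0 lower of 41 tested (299 annotated), with a median log2 fold change of 2.89 in tho2Δ and 2.92 in the wild type. Their summed counts were 3704, 2207 and 2779 in the Cbp80-PrA tho2Δ pulldowns and 74, 39 and 53 in the no tag tho2Δ pulldowns. Of the 41 genes 26 had at most 3 no tag counts. Those could pass the filter on low counts only through other pulldowns, which favours a higher call, so the 36 and 0 are partly set by the filter. Of 5 tested antisense RNAs 4 were higher and 0 lower (median 4.17). Transfer RNAs are made by RNA polymerase III and carry no cap of this kind.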
